A study of Mus musculus with 9 samples.

Results

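Cytotoxic lymphocytes kill by releasing the content of lytic granules onto a target cell, and 10 genes of this machinery were followed in the murine cell line T15. The set comprised 5 genes of granule content (Prf1, Gzma, Gzmb, Srgn and Ctsw) and 5 genes of granule release (Unc13d, Stx11, Stxbp2, Rab27a and Lyst), which are 10 of the 35288 genes listed in the deposited table. The set was chosen by the measured level of Prf1, which moved in opposite directions under SAHA and under Smarcb1 re-expression, and values of Prf1 are therefore given below as a description without a test. The other 9 genes were listed by their role, with earlier results of these data known.

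T15 was derived from a mouse model of peripheral T-cell lymphoma that lacks Smarcb1, a core subunit of the SWI/SNF chromatin remodeller. RNA-seq libraries were available for 3 control cultures, 3 cultures that received 1 µM SAHA (vorinostat, an inhibitor of histone deacetylases) over 72 h, and 3 cultures of Smarcb1-RE cells, all on the same Smarcb1-negative background. Smarcb1-RE cells carried a lentiviral, doxycycline (Dox)-inducible Smarcb1 cDNA, had been selected with G418 and were induced with 0.5 µg/µl Dox for 72 h. Several stable clones were made, and the labels do not say whether the 3 libraries came from 1 of them. Vehicle-treated cells and cells with a control plasmid are both named as controls in the labels, which leave it unsaid which of them the 3 control libraries hold. The study's text calls the control untreated, whereas its scheme of the re-expression shows cells with an empty vector and Dox. Effects of transduction, selection and Dox therefore cannot be told apart from those of Smarcb1 in the Smarcb1-RE comparison. The same holds for the direct comparison of Smarcb1-RE with SAHA. If the control cells held a plasmid and received Dox, or received no vehicle, such effects would also enter the comparison of SAHA with control. At the SAHA concentration used here, the study reports strong apoptosis with most cells dead. After re-expression it reports slower growth with viability unaffected. Its description of the libraries does not give the share of living cells. A part of cell death, survival or slower growth in the levels below was not tested.

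Perforin, the product of Prf1, forms pores in the membrane of the target cell, through which granzymes, the granule serine proteases encoded by Gzma, Gzmb and their relatives, gain entry. Serglycin (Srgn) is the proteoglycan core that packs perforin and granzymes in the granule, and cathepsin W (Ctsw) is a papain-like protease found mainly in cytotoxic lymphocytes. The small GTPase Rab27a and its effector Munc13-4 (Unc13d) tether and prime granules at the plasma membrane, syntaxin-11 (Stx11) and its partner Munc18-2 (Stxbp2) act in membrane fusion, and Lyst regulates the size and fusion of lysosomes and granules. Inherited loss of perforin, Munc13-4, syntaxin-11, Munc18-2, Rab27a or LYST causes hyperinflammatory syndromes with defective killing.

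The 9 libraries held between 20900477 and 24941494 estimated counts, and levels are given as CPM, counts scaled to a common library size, after TMM normalization, which corrects for differences in composition between libraries. A gene with 3 counts, taken as the lowest detectable level, corresponded to 0.123 to 0.133 CPM, a limit that reflects counting error alone. Smarcb1 had 2, 5 and 8 counts in control, 7, 13 and 3 with SAHA and 151, 147 and 142 with re-expression. Of 18 T-cell identity genes, 14 were expressed above the filter used for testing, among them Cd3e (between 374 and 410 CPM in control) and Cd8a (between 686 and 694 CPM), whereas Cd4 was at 0 in all 9 libraries, and Cd2, Cd5 and Thy1 were at or near 0 and not tested. None of 8 markers of NK cells, the other major cytotoxic lymphocyte, passed the filter, and their summed level was at most 0.575 CPM in any library. The 10 myeloid markers had no tested gene either, with a sum of at most 0.851 CPM. Of 9 mast-cell and basophil markers 1 was tested (Ms4a2), and their sum ranged from 0.617 to 0.723 CPM in control, from 1.28 to 1.6 in SAHA and from 0.427 to 0.664 in Smarcb1-RE. The sum of 6 B-cell markers, 2 of them tested, ranged from 1.02 to 1.31 CPM in control, from 1.33 to 1.95 in SAHA and from 7.34 to 8.23 in Smarcb1-RE, where Pax5 and Ms4a1 carried it. In a bulk sample, fewer cells that express a gene and less RNA per cell cannot be told apart.

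Sequences upstream of the transcription start were taken from RefSeq (GRCm38.p6) for 8 of the 10 genes, in 10 windows of 250 bases, and those of Ctsw and Unc13d were not analysed here. The windows of Prf1, Gzmb and Stx11 are shown here with every CpG dinucleotide in capitals. Prf1 moved in opposite directions, Gzmb was at or near 0 in all groups, and Stx11 represents the release genes, which were expressed in all groups. The sequences run 5′ to 3′ on the strand of the gene, from chr10:61297586-61297835 (plus strand) for Prf1, chr14:56262335-56262584 (minus strand) for Gzmb and chr10:12964260-12964509 (minus strand) for Stx11.
Prf1: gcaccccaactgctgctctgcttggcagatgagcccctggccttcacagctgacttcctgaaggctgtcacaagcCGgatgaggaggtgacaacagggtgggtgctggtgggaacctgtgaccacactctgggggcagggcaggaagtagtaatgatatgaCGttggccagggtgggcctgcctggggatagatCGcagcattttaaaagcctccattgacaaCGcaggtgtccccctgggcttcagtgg
Gzmb: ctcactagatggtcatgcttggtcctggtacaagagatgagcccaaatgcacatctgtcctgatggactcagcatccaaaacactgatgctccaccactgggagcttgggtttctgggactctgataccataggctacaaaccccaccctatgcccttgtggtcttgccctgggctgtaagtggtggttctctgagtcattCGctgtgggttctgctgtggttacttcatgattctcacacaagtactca
Stx11: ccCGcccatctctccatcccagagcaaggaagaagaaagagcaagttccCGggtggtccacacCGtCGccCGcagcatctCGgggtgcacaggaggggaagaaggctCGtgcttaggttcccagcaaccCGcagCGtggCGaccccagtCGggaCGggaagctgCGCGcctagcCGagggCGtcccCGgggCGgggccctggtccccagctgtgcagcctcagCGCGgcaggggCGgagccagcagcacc

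The Prf1 window held 4 CpG dinucleotides, the Gzmb window 1 and the Stx11 window 21, against a median of 6 over 32851 RefSeq windows of the same length. All analysed windows of granule content genes were at or below that median, with 3 in Gzma and 3 and 5 in the windows of Srgn. Stxbp2 held 17 and Lyst 22, and both windows of Rab27a held 14 and 5. For each window, 6 short motifs were searched on both strands, none of which contains another. The RUNX letters TGTGGT were found in windows of 5 genes (Prf1, Gzma, Gzmb, Srgn and Rab27a), and 14.0% of all windows hold them. The ETS letters GGAAGT occurred in Prf1, Srgn and Rab27a (19.7% of all windows), and the CRE letters TGACGT in Prf1 and Srgn (6.47%). The T-box letters TCACACC occurred in Rab27a alone (3.33%), the AP-1 letters TGANTCA in Gzmb (6.75%) and the STAT letters TTCNNNGAA in Lyst (7.02%). Srgn and Rab27a were searched in 2 windows each, so counts of genes cannot be set directly against shares of windows. These matches describe letters in a window and are not known binding sites.

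Perforin was expressed in control T15 cells, was higher after SAHA and was far lower where Smarcb1 was re-expressed. Prf1 (ENSMUSG00000037202) lies on the plus strand at chr10:61297833-61304680 (GRCm38, GENCODE M21) and has 2 annotated transcripts, with 3 and 2 exons. The window shown above lies at the start of the transcript with 3 exons. The sequence before the other start, at chr10:61299801, was not searched. It measured 19.65, 17.8 and 21.8 CPM in the control libraries, 25.7, 25.4 and 27.4 CPM in the SAHA libraries and 2.82, 2.88 and 2.41 CPM in the Smarcb1-RE libraries. The ranges of the groups did not overlap, with all SAHA libraries above and all Smarcb1-RE libraries below the control. Group means were 19.8 ± 2.002 CPM in control, 26.2 ± 1.11 CPM in SAHA and 2.70 ± 0.251 CPM in Smarcb1-RE (SD, n = 3 each). The log2 fold change was 0.41 (standard error 0.08) for SAHA, a 1.32-fold higher level, and -2.87 (standard error 0.10) for Smarcb1-RE, a 7.30-fold lower level. Between the treatments, Prf1 was 9.67-fold lower in Smarcb1-RE than in SAHA (log2 difference -3.27, standard error 0.10). Leaving out each of the 9 libraries in turn gave log2 fold changes from 0.33 to 0.48 for SAHA and from -2.95 to -2.80 for Smarcb1-RE.

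**Figure D1:**
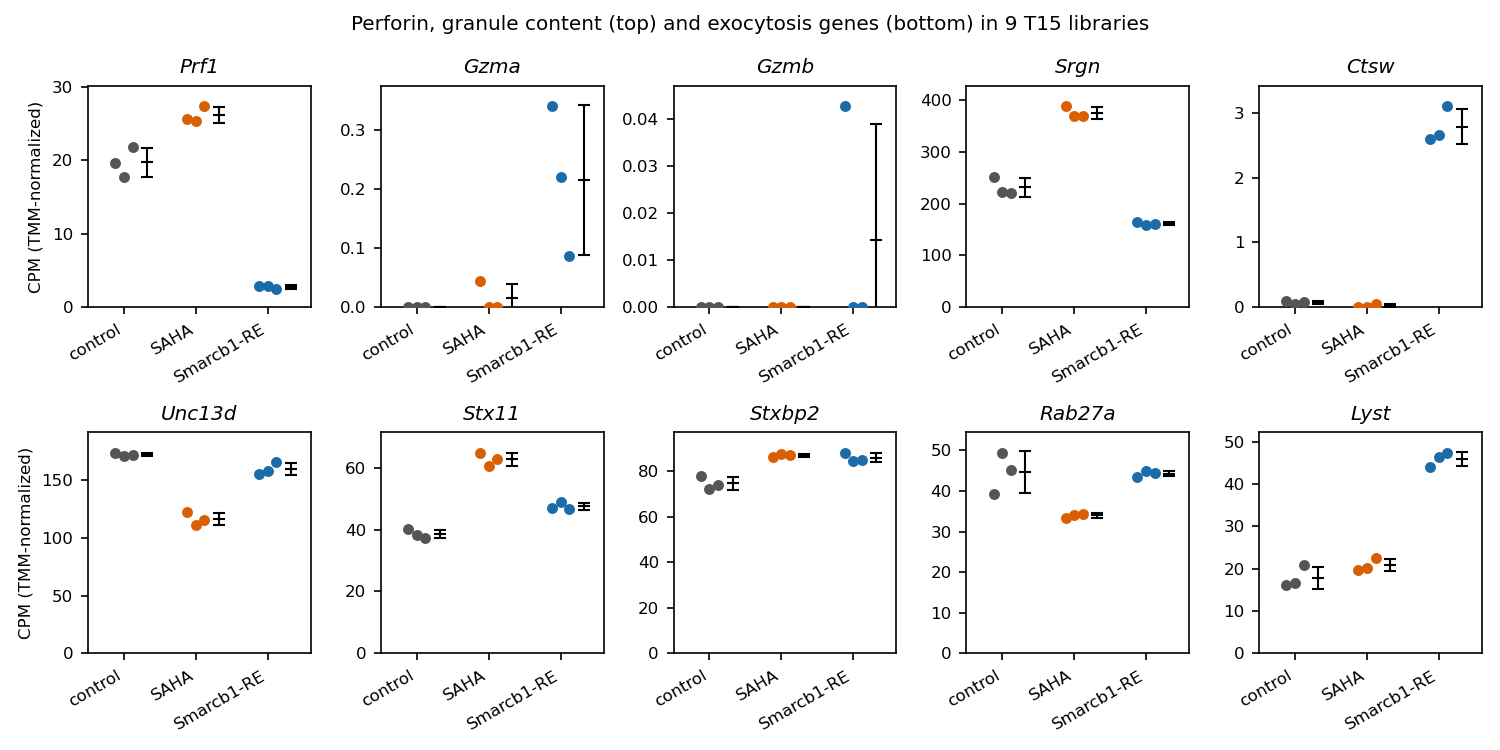
Each panel plots 1 gene, with TMM-normalized CPM on a linear axis that starts at 0 and has its own scale, points for the 3 libraries of each group, and a bar for the mean ± SD. Prf1 lies between 17.8 and 21.8 CPM in control, between 25.4 and 27.4 CPM in SAHA and between 2.41 and 2.88 CPM in Smarcb1-RE, while Gzma reaches at most 0.341 CPM and Gzmb 0.0427 CPM.

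The granule proteoglycan moved in the same directions as perforin, by a larger step with SAHA and a smaller one in Smarcb1-RE. Srgn (ENSMUSG00000020077, minus strand, chr10:62493833-62527451) measured 252, 222 and 221 CPM in control, 389, 369.9 and 369 CPM in SAHA and 165, 159 and 161 CPM in Smarcb1-RE. No library of one group reached the range of another. Srgn rose 1.62-fold with SAHA (log2 fold change 0.70, standard error 0.05, adjusted p = 1.46e-07) and fell 1.43-fold in Smarcb1-RE (-0.52, standard error 0.05, adjusted p = 1.26e-06). All adjusted p-values come from the quasi-likelihood test of edgeR with Benjamini-Hochberg adjustment over 13697 genes. A gene called higher with SAHA and lower in Smarcb1-RE was no rarity, since 1025 of the 13697 tested genes, or 7.48%, did so. Both comparisons use the same control libraries, and the direct comparison gave 2.32-fold less Srgn in Smarcb1-RE than in SAHA (log2 difference -1.216, standard error 0.05, adjusted p = 5.4e-10).

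The cargo proteases were nearly absent before and after treatment, except for cathepsin W. Gzma (ENSMUSG00000023132, minus strand, chr13:113093825-113100981) had 0 counts in all control libraries, 1, 0 and 0 counts after SAHA and 8, 5 and 2 counts in Smarcb1-RE. Gzmb (ENSMUSG00000015437, minus strand, chr14:56258838-56262260) had 0 counts in 8 libraries and 1 in Smarcb1-RE replicate 1. Neither gene passed the filter on low counts, so neither was tested, and only 2 libraries, both of Smarcb1-RE, held more than 3 counts of Gzma. Ctsw (ENSMUSG00000024910, minus strand, chr19:5465043-5468507) had 2, 1 and 2 counts in control and 0, 0 and 1 in SAHA, all under the detectable level, and 61, 60 and 72 counts in Smarcb1-RE. Its mean in Smarcb1-RE was 2.79 ± 0.276 CPM (SD, n = 3). Summed over libraries, 193 counts in Smarcb1-RE against 5 in control gave a ratio of 39.8 (95% exact counting interval from 16.8 to 124), and against 1 count in SAHA a ratio of 192 (34.1 to 7630). These intervals cover counting error alone, leave out the spread between libraries and are not read as a test. Ctsw entered the test only through its level in the Smarcb1-RE libraries, so a difference there follows in part from the filter and is given without a test. The summed B-cell markers were higher in the same libraries, as given above, and their part in the result was not tested.

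The other granzymes were likewise at or near 0. Gzmc, Gzmf and Gzmn had no counts in any library, and the group means of Gzmd, Gzme, Gzmg and Gzmk were at most 0.0435 CPM. Gzmm was the granzyme with the highest level, between 0.427 and 0.953 CPM over the 9 libraries, and was called in neither comparison (log2 fold change 0.03 with SAHA, adjusted p = 0.942, and -0.39 in Smarcb1-RE, adjusted p = 0.243).

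The release genes were expressed in all groups and shifted by modest amounts, except for Lyst, which rose 2.57-fold in Smarcb1-RE. Among the 9 genes other than Prf1, 7 passed the filter. Ctsw, which passed it through the Smarcb1-RE libraries alone, is left out of the following counts, a choice made after seeing the data. Of the other 6 with SAHA, 4 were called higher (Srgn, Stx11, Stxbp2 and Lyst) and 2 lower (Unc13d and Rab27a), where 32.6% of all tested genes were called higher and 34.3% lower. In Smarcb1-RE, 3 were called higher (Stx11, Stxbp2 and Lyst) and 2 lower (Srgn and Unc13d), against 39.2% and 38.6% of all genes. With so large a share of the transcriptome called, these counts did not set the genes apart. A called change of at least 2-fold was seen in 0 of the 6 with SAHA, against 9.85% of all genes higher and 2.35% lower. In Smarcb1-RE, 1 of the 6 (Lyst) was called higher by at least 2-fold and 0 were called lower by as much, where 16.9% and 6.78% of all genes did.

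Stx11 (ENSMUSG00000039232, minus strand, chr10:12938209-12964298), the syntaxin of granule fusion, measured 40.0, 38.2 and 37.3 CPM in control, 64.8, 60.4 and 62.7 CPM in SAHA and 46.8, 48.9 and 46.7 CPM in Smarcb1-RE. Its 3 groups were separate, with SAHA highest. It rose 1.63-fold with SAHA (log2 fold change 0.70, standard error 0.05, adjusted p = 5.08e-08) and 1.23-fold in Smarcb1-RE (0.30, standard error 0.05, adjusted p = 6.35e-05). Its partner Stxbp2 (ENSMUSG00000004626, plus strand, chr8:3630955-3643644) measured 77.8, 72.0 and 74.0 CPM in control, 85.9, 87.5 and 86.8 CPM in SAHA and 88.0, 84.5 and 84.6 CPM in Smarcb1-RE. Both treated groups lay above control and overlapped each other. Stxbp2 rose 1.16-fold with SAHA (0.22, standard error 0.04, adjusted p = 0.000472) and 1.15-fold in Smarcb1-RE (0.20, standard error 0.04, adjusted p = 0.000674).

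Unc13d (ENSMUSG00000057948, minus strand, chr11:116062095-116077961), the priming factor, was the release gene with the highest level and went down with SAHA. It measured 174, 171 and 172 CPM in control, 122, 112 and 116 CPM in SAHA and 156, 159 and 166 CPM in Smarcb1-RE. SAHA libraries were the lowest, and all Smarcb1-RE libraries lay between them and control. Unc13d fell 1.48-fold with SAHA (log2 fold change -0.56, standard error 0.04, adjusted p = 1.75e-07). The small decrease in Smarcb1-RE (-0.11, standard error 0.04, adjusted p = 0.0327) turned into 0.05 (adjusted p = 0.284) when libraries were scaled by their totals alone, a scaling under which the median of all genes moved there from 0.01 to 0.17. It was also not called without Smarcb1-RE replicate 1 (-0.10, adjusted p = 0.0857) or replicate 2 (-0.10, adjusted p = 0.0861). Rab27a (ENSMUSG00000032202, plus strand, chr9:73044854-73097629), the granule GTPase, measured 39.2, 49.5 and 45.3 CPM in control, 33.3, 34.2 and 34.5 CPM in SAHA and 43.5, 44.9 and 44.5 CPM in Smarcb1-RE. The control libraries spread most and enclosed the Smarcb1-RE values, whereas every SAHA library lay below both groups. Rab27a fell 1.31-fold with SAHA (-0.39, standard error 0.07, adjusted p = 0.000286), and its value in Smarcb1-RE was -0.01 (standard error 0.07, adjusted p = 0.889), a sign that turned to 0.15 (adjusted p = 0.077) with library totals alone.

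Lyst (ENSMUSG00000019726, plus strand, chr13:13590397-13778803), the regulator of granule size, measured 16.03, 16.7 and 20.9 CPM in control, 19.7, 20.2 and 22.5 CPM in SAHA and 44.1, 46.3 and 47.4 CPM in Smarcb1-RE. Smarcb1-RE stood clear of both other groups, and SAHA overlapped control. Lyst rose in Smarcb1-RE with a log2 fold change of 1.36 (standard error 0.09, adjusted p = 1.31e-08). With SAHA the change of 0.22 (standard error 0.09) was at the threshold (adjusted p = 0.0492) and was not called when any single library other than control replicate 3 was left out, with adjusted p from 0.0568 to 0.194 in those 8 fits. Those fits gave log2 fold changes from 0.15 to 0.25, and leaving out control replicate 3 gave 0.35 (adjusted p = 0.00134).

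**Figure D2:**
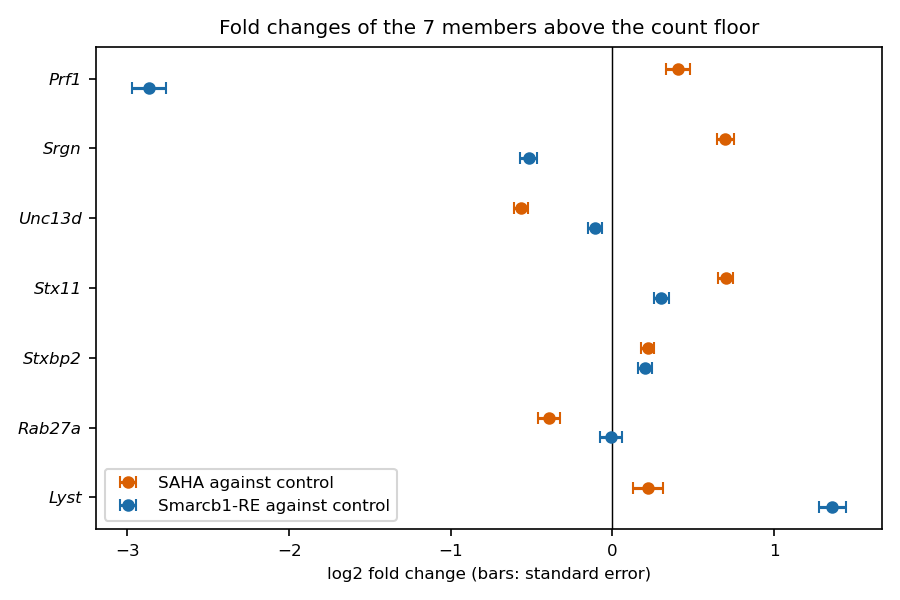
Log2 fold changes of 7 genes against control are plotted with their standard errors, in orange for SAHA and in blue for Smarcb1-RE, and Ctsw, Gzma and Gzmb are left out because their control counts were at or under 3. Prf1 and Srgn lie on opposite sides of 0 in the 2 comparisons (0.41 and -2.87, 0.70 and -0.52), and Prf1 in Smarcb1-RE lies farthest from 0.

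The direct comparison of Smarcb1-RE with SAHA does not use the control libraries in its contrast. Of the 6 tested genes other than Prf1 and Ctsw, 3 were called higher in Smarcb1-RE (Lyst, Unc13d and Rab27a) and 2 lower (Srgn and Stx11), where 37.7% of all tested genes were called higher and 36.8% lower. Lyst was 2.21-fold higher (log2 difference 1.14, standard error 0.08, adjusted p = 6.84e-08), Unc13d 1.37-fold (0.46, standard error 0.04, adjusted p = 6.42e-07) and Rab27a 1.30-fold (0.38, standard error 0.07, adjusted p = 0.000293). Stx11 was 1.32-fold lower (-0.40, standard error 0.05, adjusted p = 3.94e-06). Stxbp2 differed by -0.02 (standard error 0.04, adjusted p = 0.717), which became 0.14 (adjusted p = 0.006) with library totals alone.

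Per kilobase of exon, the scale on which levels of different genes can be set side by side, serglycin led in every group with means of 105, 171 and 73.7 CPM per kb in control, SAHA and Smarcb1-RE. Unc13d (36.9, 24.9 and 34.2) and then Stxbp2 (17.9, 20.9 and 20.6) followed. In control the order went on with Rab27a (11.5), Stx11 (9.15), Prf1 (7.64) and Lyst (1.02), and no neighbours among these 7 overlapped. Perforin thus ranked 6 of the 10 genes in control. In SAHA it ranked 5, with 10.1 CPM per kb, above Rab27a with 8.76. In Smarcb1-RE it ranked 8, with 1.05 CPM per kb, below Lyst (2.63) and Ctsw (1.48), while Rab27a (11.4) and Stx11 (11.3) overlapped there.

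Beyond the 10 genes, lists of other genes of the pathway were counted. Of 25 genes of granule content and granzyme handling, 15 were tested. With SAHA, 4 rose, 5 fell and 6 were not called (median log2 fold change 0.05, against 0.003 over all genes), and in Smarcb1-RE 5 rose, 7 fell and 3 were not called (median -0.20 against 0.01). The shares of all tested genes called higher and lower, against which the counts of all 5 lists are to be read, were 32.6% and 34.3% with SAHA and 39.2% and 38.6% in Smarcb1-RE. Some listed genes passed the filter only through the group where they were high, and with at least 10 counts required in every library each of these counts moved by at most 2. Ctsc, the cathepsin that activates granzymes by removing their propeptide, rose with SAHA from between 75.7 and 79.6 CPM to between 134 and 137 CPM (log2 fold change 0.79, adjusted p = 5.05e-09). In Smarcb1-RE it fell to between 45.5 and 46.8 CPM (-0.76, adjusted p = 2.69e-09). Cst7, which encodes cystatin F, an inhibitor of cathepsins, rose in Smarcb1-RE (0.94, adjusted p = 1.4e-08) and had a value of 0.05 with SAHA (adjusted p = 0.501). Calr, the calcium-binding chaperone calreticulin that is also found in granules, fell in Smarcb1-RE from between 786 and 815 CPM to between 333 and 340.1 CPM (-1.25, adjusted p = 1.68e-11). The lysosomal membrane gene Lamp2 (1.15) and Igf2r (0.69), a gene of a mannose-6-phosphate receptor, which sorts enzymes to lysosomes, rose with SAHA. M6pr, the other gene of such a receptor in the list, fell with SAHA (-0.18, adjusted p = 0.00165) and in Smarcb1-RE (-0.59, adjusted p = 2.41e-08). Gnptab, needed to make that sorting signal, fell in both comparisons (-0.54 and -0.54). Among the serine protease inhibitors, Serpinb6a fell in both comparisons (-0.72 and -0.99), and Serpinb6b rose in Smarcb1-RE (1.21). The granzyme B inhibitor Serpinb9 fell with SAHA (-0.48) and less in Smarcb1-RE (-0.20, adjusted p = 0.0218). Nkg7, a granule membrane gene, rose in Smarcb1-RE by 0.33 (adjusted p = 1.95e-05).

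In the list of other genes of granule transport, docking and fusion, 27 of 30 were tested. With SAHA, 12 rose, 7 fell and 8 were not called (median 0.03), and in Smarcb1-RE 7 rose, 13 fell and 7 were not called (median -0.17), where 32.6% and 34.3% of all genes were called higher and lower with SAHA and 39.2% and 38.6% in Smarcb1-RE. With library totals alone, 11 rose and 11 fell in Smarcb1-RE. The strongest decreases there were in Sytl3 and Sytl2, which encode synaptotagmin-like proteins that bind Rab27 GTPases. Sytl3 measured 72.9, 71.1 and 71.6 CPM in control, 68.0, 66.3 and 68.3 CPM in SAHA and 10.2, 9.25 and 10.7 CPM in Smarcb1-RE. Its value was -0.09 with SAHA (adjusted p = 0.086), and in Smarcb1-RE it fell with a log2 fold change of -2.84 (standard error 0.05, adjusted p = 7.67e-13). Sytl2 fell in Smarcb1-RE from between 36.4 and 38.3 CPM to between 7.20 and 7.51 CPM (-2.35, standard error 0.07, adjusted p = 4.19e-11), and by 0.33 on the log2 scale with SAHA (adjusted p = 0.000497). Unc13b, a Munc13 paralog of Unc13d, rose in both comparisons (1.71 and 1.58). Stx3, another syntaxin, rose with SAHA (1.75) and was not called in Smarcb1-RE (0.29, adjusted p = 0.112). The SNARE gene Vamp2 rose in both comparisons (0.81 and 1.17). Vamp8, a SNARE of endosomes and granules, Snap29 and Kif5b, a motor that carries vesicles along microtubules, fell in both comparisons. The values were -1.60 and -0.57 for Vamp8, -0.64 and -1.05 for Snap29, and -0.44 and -0.32 for Kif5b.

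All 18 genes of lysosome-related organelle biogenesis were tested. With SAHA, 7 rose and 7 fell (median 0.08), and in Smarcb1-RE 6 rose and 10 fell (median -0.28). The 7 of 18 in each direction with SAHA lie near the 32.6% and 34.3% of all genes, and in Smarcb1-RE the shares of all genes were 39.2% and 38.6%. Hps6, Ap3s1 and Bloc1s3 led the increases with SAHA (0.82, 0.74 and 0.36) and Vps33a, Bloc1s1 and Hps3 the decreases (-0.69, -0.61 and -0.56). In Smarcb1-RE, Hps1, Hps5 and Bloc1s3 rose (0.66, 0.42 and 0.40), and Dtnbp1, Bloc1s4 and Bloc1s6, subunits of the BLOC-1 complex, fell (-0.62, -0.59 and -0.46). No gene of this list reached a 2-fold change in either comparison.

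**Figure D3:**
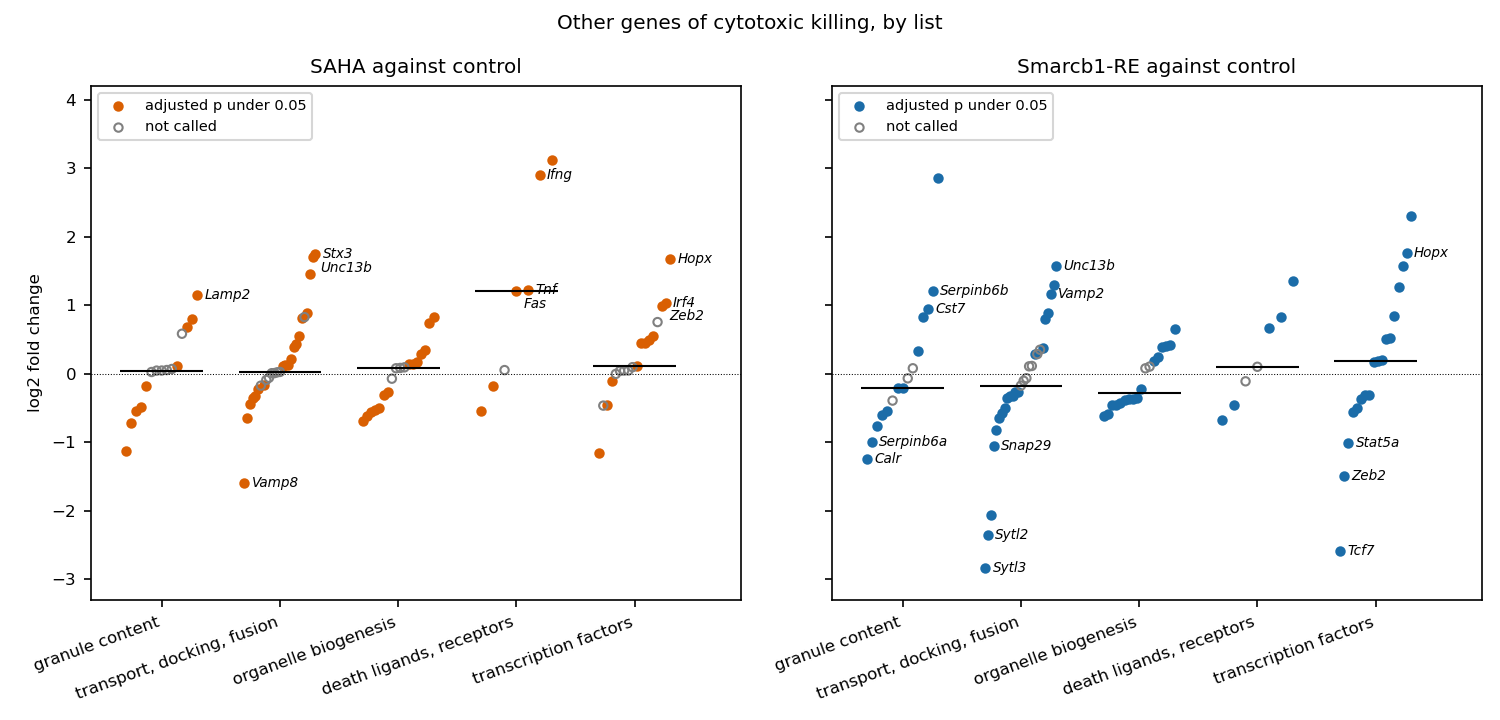
Each point is the log2 fold change against control of 1 tested gene of 5 lists (filled, adjusted p under 0.05), ordered by value within its list, with a black line at the list's median. Medians lie between 0.03 and 1.20 with SAHA and between -0.28 and 0.18 in Smarcb1-RE, and Sytl3 (-2.84), Tcf7 (-2.58) and Sytl2 (-2.35) are the lowest named points in the Smarcb1-RE panel.

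Killing without granules runs through death ligands and cytokines, and 7 of 8 such genes were tested. With SAHA, 4 rose and 2 fell (median 1.20), and in Smarcb1-RE 3 rose and 2 fell (median 0.10), where 32.6% and 34.3% of all genes were called higher and lower with SAHA and 39.2% and 38.6% in Smarcb1-RE. Interferon gamma (Ifng) rose with SAHA from between 22.2 and 25.7 CPM to between 166 and 183 CPM (log2 fold change 2.90, adjusted p = 5.37e-11). Tnf and the death receptor gene Fas rose with SAHA (1.218 and 1.20) and fell in Smarcb1-RE (-0.45 and -0.67). Tnfsf10, which encodes the ligand TRAIL, went the other way (-0.54 and 0.82), and lymphotoxin beta (Ltb) rose in Smarcb1-RE (0.67). Of the 2 decreases with SAHA, that of Ltb (-0.18, adjusted p = 0.0445) was not called without control replicate 1, SAHA replicate 1 or 3 or any single Smarcb1-RE library, with adjusted p up to 0.167.

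Of 19 transcription factors that act in cytotoxic programmes, 18 were tested. With SAHA, 8 rose and 3 fell (median 0.11), against 32.6% and 34.3% of all genes. In Smarcb1-RE 10 rose and 8 fell (median 0.18), against 39.2% and 38.6% of all genes. Of these 10, Eomes and Lef1 held from 3 to 11 counts in the control libraries and passed the filter through Smarcb1-RE. Hopx rose in both comparisons (1.67 and 1.76), and Irf4 rose with SAHA (1.04). Zeb2, which is linked to terminal effector differentiation, rose with SAHA (0.99) and fell in Smarcb1-RE (-1.50). Tcf7, the transcription factor TCF-1 of memory and stem-like T cells, fell in Smarcb1-RE from between 270.4 and 291 CPM to between 44.8 and 48.9 CPM (-2.58, adjusted p = 8.9e-13). Stat5a, which transmits IL-2 signals, fell in both (-0.46 and -1.01), and Id3 and Bach2 rose in Smarcb1-RE (0.84 and 0.53). Tbx21, Eomes and Runx3, known as activators of Prf1, were singled out after their values were seen. Tbx21, the T-bet gene, measured between 210.2 and 223 CPM in control, between 289 and 304 CPM in SAHA and between 142 and 152 CPM in Smarcb1-RE, with log2 fold changes of 0.45 (adjusted p = 9.73e-07) and -0.56 (adjusted p = 7.19e-08). Runx3 rose in both comparisons (0.50, adjusted p = 3.16e-06, and 0.51, adjusted p = 1.53e-06). Eomes held between 5 and 11 counts in control, between 3 and 8 in SAHA and between 34 and 43 in Smarcb1-RE. In Smarcb1-RE, Tbx21 was thus lower than control, and Runx3 was higher. Eomes had more counts there, but it passed the filter through these libraries and is given without a test. A part of any of these genes in the level of Prf1 was not tested.

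The genes whose pattern over the 9 libraries was most like that of Prf1 were sought by the root mean square difference of mean-centred log2 CPM among 11318 genes. The nearest were Grb14 (0.18), Ppp1r1b (0.22), Axin2 (0.23), Cybrd1 (0.24) and Mfhas1 (0.24), whereas the median gene differed by 1.45. Ppp1r1b measured between 27.8 and 29.0 CPM in control, between 43.4 and 51.2 CPM in SAHA and between 3.45 and 4.16 CPM in Smarcb1-RE. Grb14 measured between 7.77 and 8.41 CPM in control, between 11.6 and 12.8 CPM in SAHA and between 0.939 and 1.33 CPM in Smarcb1-RE. No listed gene of the granule pathway was among these 5.

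**Figure D4:**
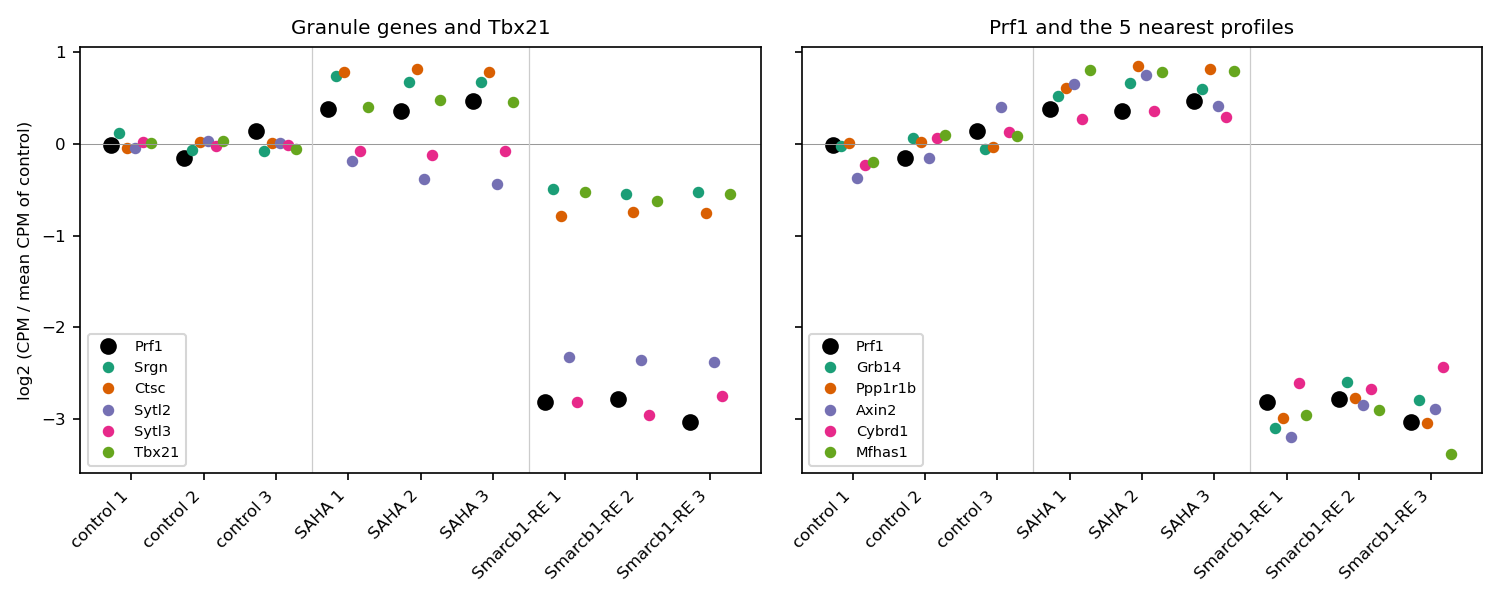
Each point is the log2 ratio of the CPM in 1 of the 9 libraries to the gene's mean in control, for Prf1 (large black points) with Srgn, Ctsc, Sytl2, Sytl3 and Tbx21 on the left and with the 5 nearest profiles on the right. On the left, Srgn, Ctsc and Tbx21 lie on the same side of 0 as Prf1 in both treated groups but closer to 0 in Smarcb1-RE, and Sytl2 and Sytl3 lie below 0 in both. The genes on the left are a selection made with earlier results of these data known. Runx3, which rose in both comparisons, and Eomes are not plotted.

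The nearest tested genes on either side of Prf1 gave unlike values, and 1 untested pseudogene lies between them. Adamts14, 24.4 kb away on the side of lower coordinates, fell in Smarcb1-RE (log2 fold change -0.97, standard error 0.15, adjusted p = 5.2e-05) from between 4.34 and 5.495 CPM to between 2.24 and 2.602 CPM, and its value with SAHA was -0.26 (adjusted p = 0.114). Pald1, 15.0 kb away on the other side, had values of 0.06 in Smarcb1-RE (adjusted p = 0.651) and -0.04 with SAHA (adjusted p = 0.802). Around Gzmb, the nearest tested genes were Sdr39u1 and Cenpj, 358 and 264 kb away, and the 25 other listed genes between them, which include the granzyme cluster, were all untested, with a highest group mean of 0.187 CPM.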

How the data were processed

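The authors deposited 1 table of estimated counts per Ensembl gene for the 9 libraries, neither normalized nor pooled. The submitters' processing notes name FastQC 0.11.8, MultiQC 1.7, Salmon 0.14.1, DESeq2 1.22.2 and the build GRCm38, without saying which step used which. The strand-preserving libraries were made from total RNA, and reads were single-end. Of the 35288 identifiers, 99.5% were named from GENCODE M21, and 52.4% of the counts above 0 were not whole. Reads shared by similar genes, such as granzyme paralogs, may have been divided between them.

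Counts were rounded and analysed in R 4.3.3 with edgeR 4.0.16 (TMM, filterByExpr with a minimum count of 10, 1 quasi-likelihood fit to all 9 libraries, Benjamini-Hochberg adjustment over 13697 genes, adjusted p under 0.05). Standard errors are |log2 fold change| over the root of the F statistic. The common biological coefficient of variation was 5.24%, and no replicates agreed within sampling noise (chi-square per gene from 2.12 to 15.0). Control replicate 1 gave the highest values, 13.4 and 15.0 against the other control replicates. The next highest was 4.69, between SAHA replicates 1 and 2. The study describes biological replicates without saying how the cultures were separated, so p-values measure the spread between these samples. Calculations were tested on simulated data. Prf1 was not tested. The members and all lists were chosen with earlier results of these data known.

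Named genes were the members, Smarcb1, all granzymes, the neighbours of Prf1 and Gzmb, the 5 genes nearest to Prf1 in profile among tested genes averaging a log2 CPM of 1 or more (prior count 2), and, per list, comparison and direction, up to 3 called genes with the largest change, that average and no overlap with control. The values of some genes on these lists are not reported here. Alternatives were DESeq2 1.42.0, median-ratio factors, library totals only, other filters and thresholds, separate fits, a replicate block and leaving out each library.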

Additional observations from a re-analysis of the deposited data

How the results depend on the processing

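Samples with the same replicate number did not deviate together (correlations from -0.121 to 0.119, mean -0.003, against a mean of 0.001 for different numbers), and the replicate block changed no call: Prf1 stood at 0.41 with SAHA, -2.87 in Smarcb1-RE and -3.27 between them. Prf1 ranged from 0.33 to 0.48, from -2.95 to -2.80 and from -3.32 to -3.20 when 1 library was left out. With library totals alone, which raised the share of higher calls among all genes in Smarcb1-RE from 50.4% to 61% and between the treatments from 50.6% to 62.1%, Prf1 moved to -2.710 and -3.115, Unc13d, Rab27a and Lamp2 in Smarcb1-RE to 0.051, 0.147 and 0.094, and Stxbp2 between the treatments to 0.141, with opposite signs. With at least 10 counts in every library, Rab27a in Smarcb1-RE turned to 0.045 and Stxbp2 between the treatments to 0.005. The cause was not tested.

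Among members other than Prf1, a minimum log2 fold change of 1 left 0 higher and 0 lower with SAHA, 2 and 0 in Smarcb1-RE, and 2 and 1 between the treatments, of which 1 higher in each of the last 2 was Ctsw, so that 1 and 1 remained higher without it. Calls lower in Smarcb1-RE were 1 in place of 2 with library totals alone, with at least 10 counts in every library and at an adjusted p under 0.01, and leaving out a library gave from 1 to 2. With SAHA such fits gave from 3 to 4 higher and from 2 to 3 lower. The third lower call was Ctsw without SAHA replicate 3, at counts under the detectable level, and is not read as a decrease.

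Small values changed sign on leaving out a library, with ranges from -0.103 to 0.053 for Rab27a in Smarcb1-RE and, with SAHA, from -0.002 to 0.134 for Cst7, from -0.131 to 0.005 for Bloc1s4, from -0.055 to 0.149 for Bach2, from -0.107 to 0.095 for Gzmm and from -0.142 to 0.040 for Pald1. Of the 1366 other values recomputed on all libraries for single genes and lists, 1228 were scored as unchanged and 120 as weaker, 94 of these under the 2-fold minimum. For single genes, unchanged meant the same direction and call, and weaker meant a lost call. The genes nearest to Prf1 in profile were scored by sign and size of the shift, without a call. A list count could move by a limited factor and still be scored as unchanged. With 3 libraries per group, an exact permutation test of a single gene cannot go below p = 0.1. Levels of Gzma, Gzmb and, outside Smarcb1-RE, Ctsw were at the limit that depth sets.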
